A study of Mus musculus with 24 samples.

Results

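The collagen chains are the genes that code for the polypeptides of the collagens, and they were taken as every gene whose symbol reads Col, a number, a and a number (Col1a1, Col4a2 and so on). The rule found 44 of the 46078 genes listed in each of the deposited tables, and the same 44 in both. They were grouped by the kind of collagen they build, as 11 fibrillar chains, 6 basement membrane chains (collagen IV) and 27 other chains (beaded filament, fibril-associated, network, membrane-bound and anchoring collagens). In the cultured cells 22 chains were expressed highly enough to be tested and in the sorted cells 27, with 18 tested in both, 4 in culture alone, 9 in sorted cells alone and 13 in neither. A chain was tested where its level reached 0.5 RPKM (reads scaled by the length of the gene and by the reads of the library) in at least 4 of the 8 libraries of a setting.

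Collagens are secreted as helices in which several α-chains are wound together, each chain coming from its own gene. Fibrillar collagens such as types I, III and V form the fibres of the muscle's connective tissue, while collagen IV forms the sheet of the basement membrane that covers each myofibre and the satellite cell lying on it. Satellite cells, the stem cells of skeletal muscle, touch these collagens, and collagen V and VI are known as parts of their niche in mice. Fibroblasts and fibro-adipogenic progenitors are known as the main makers of collagen I and III in injured muscle.

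RNA-seq was run on 16 mouse samples in 4 groups of 4, each in a C57BL/6 background from animals of 2 to 4 months. In vitro, proliferating primary myoblasts grown from satellite cells of resting Chd4fl/fl muscle were infected with adenovirus and taken after 72 hours. The virus coded for Cre recombinase, which removes the floxed part of Chd4, in the AdCRE group, and for GFP in the AdGFP group. In vivo, cells were sorted from muscle injured with cardiotoxin 3 days before, as satellite cells positive for α7-integrin and CD34 and negative for SCA1 and CD45, either from Chd4dPax7ER or from Chd4fl/fl mice. Both culture groups carried the floxed alleles, and in vivo the label names them for the Chd4fl/fl mice and names Pax7ER for the others. Chd4 codes for the helicase of the NuRD chromatin remodelling complex. Only the AdCRE virus carried Cre, so effects of Cre itself and of Chd4 loss cannot be told apart. The labels say neither whether Cre was present in Chd4fl/fl mice nor whether all mice were treated alike, and they do not say that the numbered replicates are separate animals or cultures. P-values therefore measure only the spread between these samples.

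Chd4 had 15.8 to 23.9 RPKM in AdCRE libraries, against 67.8 to 85.5 RPKM in AdGFP libraries. In vivo it had 48.7 to 64.1 RPKM in Chd4dPax7ER libraries and 119 to 135 RPKM in Chd4fl/fl libraries. Library values summed to 288659 to 326812 RPKM in vitro and 286802 to 306114 RPKM in vivo, and between 36 and 42 collagen chains were above 0 in each library. The deposited values hold no read counts, so no counting error can be given. Libraries differed in collagen levels beyond their group. Chd4fl/fl replicate 1 was the lowest of its group for 18 of the 27 chains tested in vivo, and Chd4fl/fl replicate 3 the highest for 18. In vitro, replicate 4 was the highest for 13 of 22 chains in AdCRE and for 13 in AdGFP, and replicate 1 the lowest for 12 in AdCRE and 15 in AdGFP. Values of single libraries are given below in the order of replicates 1 to 4.

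Marker lists of other cell types were summed in each library. The 10 fibroblast and fibro-adipogenic progenitor markers summed to 149 to 270 RPKM in Chd4dPax7ER libraries, against 29.3 to 39.6 RPKM in Chd4fl/fl libraries, with none at 0 in either group. Of the 9 of these that were tested, 3 were higher in Chd4dPax7ER (Lum, Dcn and Dpt) and 0 lower, against 14.7% of all genes tested higher and 11.9% lower. The 7 myofibre markers summed to 203 to 560 RPKM in Chd4dPax7ER and 60.8 to 124 RPKM in Chd4fl/fl libraries, and all 6 that were tested were higher. The groups did not overlap for either sum. The 8 pericyte and smooth muscle markers summed to 223 to 425 RPKM in Chd4dPax7ER and 123 to 275 RPKM in Chd4fl/fl libraries, with 3 of 7 tested higher. The 6 Schwann cell markers summed to 21.9 to 63.8 RPKM in Chd4dPax7ER and 27.2 to 40.9 RPKM in Chd4fl/fl libraries, with 3 of 6 tested higher. The 7 leukocyte markers summed to 71.7 to 163 RPKM in Chd4dPax7ER and 60.6 to 112 RPKM in Chd4fl/fl libraries, with 0 of 6 passing. These 3 sums overlapped between the groups. The 6 tenocyte markers summed to 40.0 RPKM in Chd4dPax7ER replicate 2, to 10.8 to 12.3 RPKM in the other Chd4dPax7ER libraries and to 9.31 to 11.5 RPKM in Chd4fl/fl libraries. The 7 endothelial markers summed to 7.83 to 14.3 RPKM in Chd4dPax7ER and 3.72 to 7.07 RPKM in Chd4fl/fl libraries. This sum did not overlap between the groups either, and 1 of the 2 endothelial markers tested was higher (Cldn5). Kera and Emcn, of the tenocyte and endothelial lists, were at 0 in all Chd4fl/fl libraries.

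In culture the fibroblast list summed to 16.9 to 27.6 RPKM in AdCRE libraries, against 5.78 to 15.4 RPKM in AdGFP libraries. Its member Ly6a (SCA1) had 9.79 to 15.6 RPKM in AdCRE and 1.69 to 4.01 RPKM in AdGFP libraries and was 2.13 higher on the log2(RPKM + 0.5) scale (adjusted p = 0.0113, limma). Dpt and Mfap5 were at 0 in all 8 culture libraries, Lum was at 0 in the AdGFP libraries, and Dcn was at most 0.371 RPKM. Kera, Emcn, Cdh19 and Adgre1, of the lists that follow, were also at 0 in all 8 libraries, and Kcnj8 and Tyrobp in the AdGFP libraries. The pericyte and smooth muscle list summed to 664 to 1110.5 RPKM in AdCRE and 398 to 814 RPKM in AdGFP libraries. Of its 5 markers tested in culture 1 passed, Rgs5 (2.06 higher on the same scale, adjusted p = 0.0309, limma), against 0.516% of all genes tested higher. The myofibre list summed to 153 to 808 RPKM in AdCRE and 107 to 668 RPKM in AdGFP libraries. The endothelial list summed to 1.99 to 3.35 RPKM in AdCRE and 1.10 to 1.58 RPKM in AdGFP, and the Schwann list to 1.87 to 3.99 RPKM in AdCRE and 0.921 to 2.45 RPKM in AdGFP libraries. The leukocyte list summed to 2.55 to 11.1 RPKM in AdCRE and 1.09 to 6.73 RPKM in AdGFP, and the tenocyte list to 20.8 to 31.9 RPKM in AdCRE and 17.8 to 35.4 RPKM in AdGFP libraries. Of these lists the fibroblast and endothelial sums did not overlap between the groups. Within each same-numbered pair the pericyte and smooth muscle, myofibre, Schwann and leukocyte sums were higher in AdCRE too. With same-numbered libraries paired in limma, 2 of 2 fibroblast, 5 of 7 myofibre and 3 of 5 pericyte markers tested passed as higher. So did 1 of 2 endothelial, 1 of 1 Schwann and 1 of 1 leukocyte markers, against 17.5% of all genes. Of 2 tenocyte markers 0 passed, and of 7 satellite cell and myoblast markers 2 were lower, against 18.7% of all genes. Satellite cell and myoblast markers were present throughout, at 956 to 1182 RPKM in Chd4dPax7ER, 581 to 759.5 RPKM in Chd4fl/fl, 1145 to 1453 RPKM in AdCRE and 1169 to 1228 RPKM in AdGFP. The in vivo groups did not overlap for this sum, and of its 8 markers tested in vivo 3 were higher in Chd4dPax7ER and 1 lower. Over all genes tested in vivo, 14.7% were higher and 11.9% lower. In bulk samples more cells of a type and more RNA per cell cannot be told apart, and the part of these markers in the collagen results below was not tested beyond the values given.

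Fibrillar chains made up most of the collagen RNA in sorted cells and the other class made up 48.9 to 58.4% of it in culture, and within a setting the basement membrane chains of sorted cells had the ratio of group means farthest from 1. All 44 chains together summed to 651 to 1008 RPKM in AdCRE libraries and 665 to 996 RPKM in AdGFP libraries. In vivo they summed to 330 to 445 RPKM in Chd4dPax7ER libraries and 245 to 442 RPKM in Chd4fl/fl libraries. Fibrillar chains held 62.5 to 64.2% of the sum in Chd4dPax7ER and 59.8 to 67.4% in Chd4fl/fl, and 16.5 to 20.8% in AdCRE and 18.5 to 23.4% in AdGFP. These shares are taken within each library, and they were not tested between the separately processed settings. Collagen IV chains summed to 32.8 ± 13.9 RPKM in Chd4dPax7ER and 18.5 ± 5.19 RPKM in Chd4fl/fl (SD, n = 4 each), a ratio of means of 1.77. Chd4dPax7ER replicates 1 and 4 lay inside the range of Chd4fl/fl libraries for this sum. The other class made up 54.1 to 58.4% of the sum in AdCRE and 48.9 to 51.9% in AdGFP, most of it from the single gene Col18a1. These sums are descriptions without a test.

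**Figure D1:**
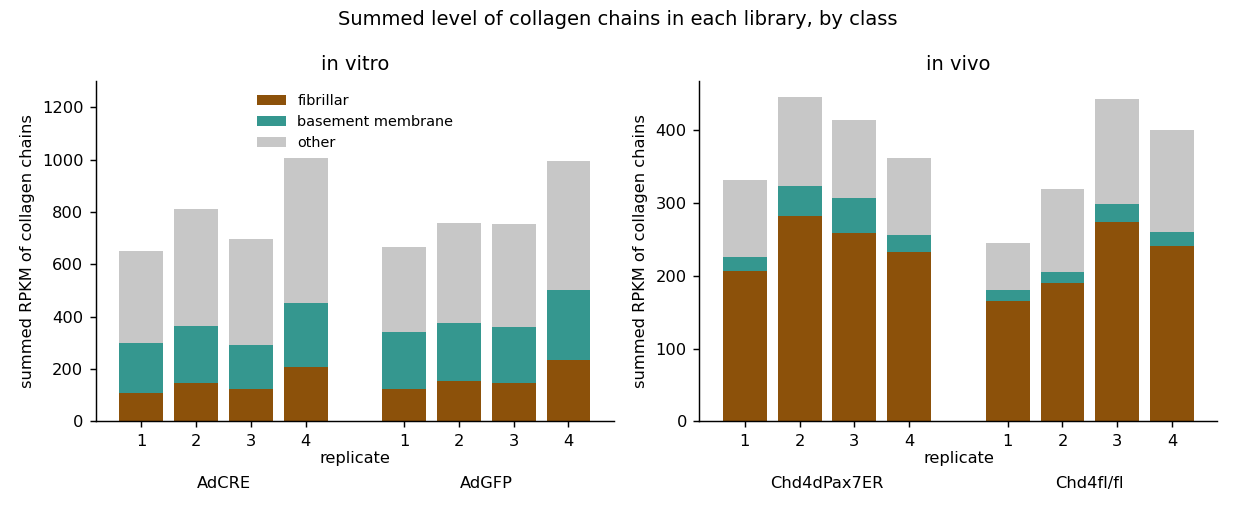
Summed RPKM of the fibrillar, basement membrane and other collagen chains in each library (bars from 0; AdCRE beside AdGFP on the left, Chd4dPax7ER beside Chd4fl/fl on the right; numbers are replicates). The other chains take the largest part in culture, at 48.9 to 58.4% of the sum, and the fibrillar chains in sorted cells, at 59.8 to 67.4%.

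In the cultured myoblasts 2 chains, Col1a1 and Col7a1, rose in AdCRE cells, while the abundant chains overlapped between the groups. Without regard to replicate number, 2 of the 22 chains tested rose and 0 fell in limma's test at an adjusted p under 0.05, against 0.656% of all genes tested, 0.516% higher and 0.14% lower. Col1a1 passed the level filter through the AdCRE libraries alone, so it had to differ to be among the 22. At an unadjusted p under 0.05 there were 3 chains, against 15.6% of all genes tested. Same-numbered AdCRE and AdGFP libraries deviated together, so a second fit held the replicate number as a block. In that fit 7 chains were higher in AdCRE and 3 lower, against 36.2% of all genes tested, 17.5% higher and 18.7% lower. The AdCRE and AdGFP libraries did not overlap for 2 of the 22 chains, against 10% of all genes tested. The median log2 fold change of the 22 chains was 0.03, and that of all genes tested was -0.01.

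**Figure D2:**
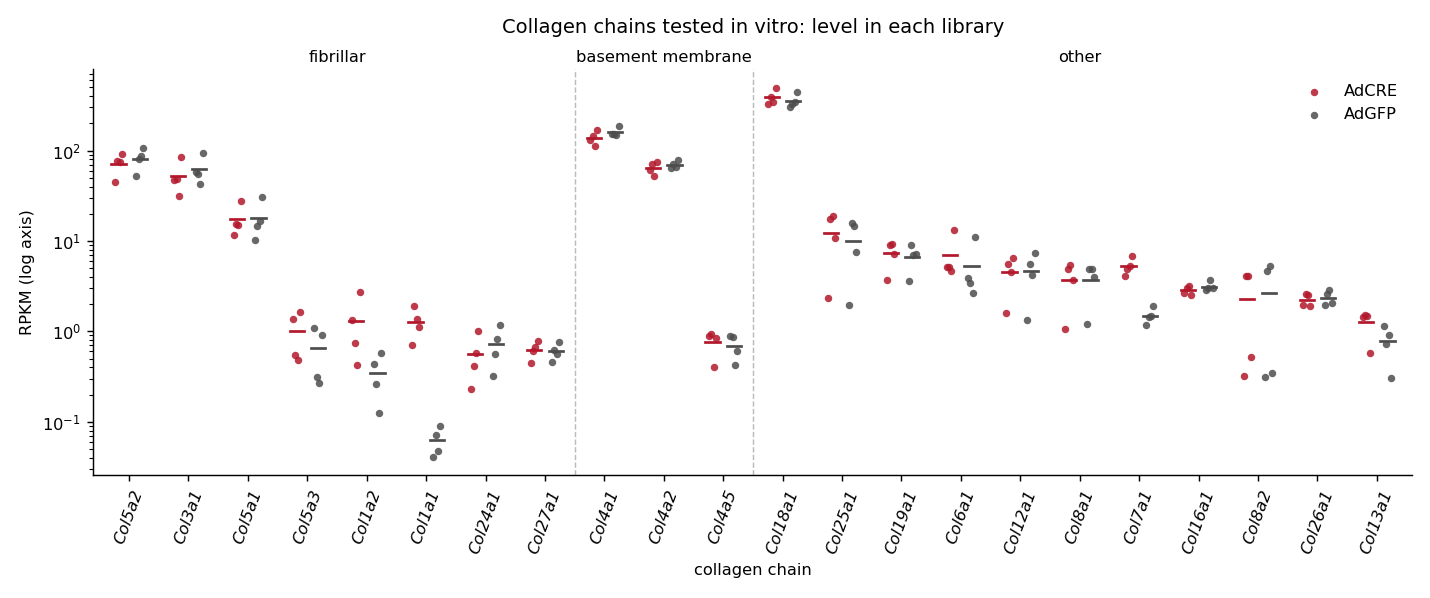
RPKM (log axis) of the 22 collagen chains tested in vitro, by class and by mean level; each point is 1 library (AdCRE left, AdGFP right of each gene) and each bar the mean of 4. Only for Col1a1 and Col7a1 do all 4 AdCRE libraries lie above all 4 AdGFP libraries.

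Among the fibrillar chains, Col1a1, the major chain of collagen I, had 0.714, 1.93, 1.36 and 1.12 RPKM in AdCRE libraries, against 0.0412, 0.0708, 0.0478 and 0.0904 RPKM in AdGFP libraries. All 4 AdCRE libraries were high, and the AdGFP libraries were near 0. The means were 1.28 ± 0.506 and 0.0625 ± 0.0225 RPKM (SD, n = 4 each). On the log2(RPKM + 0.5) scale, where the changes of genes at low levels are understated, Col1a1 was 1.62 higher (SE 0.21, adjusted p = 0.0175, limma; with the block adjusted p = 0.00073). Without the block, Col1a1 held its call in 1 of the 8 fits that left out a library, that without AdCRE replicate 1, and adjusted p was between 0.0273 and 0.0782. Col1a2, the other chain of collagen I, had 1.33, 0.751, 0.426 and 2.70 RPKM in AdCRE libraries, against 0.433, 0.261, 0.126 and 0.580 RPKM in AdGFP libraries. It was higher in AdCRE in each of the 4 same-numbered pairs, while the groups overlapped. The difference was 0.95 (SE 0.37, adjusted p = 0.271, limma), and it passed with the block (adjusted p = 0.00544). The sum of the fibroblast marker list was higher in the AdCRE libraries too, with Ly6a passing and with Dcn and Lum at most 0.275 and 0.0158 RPKM. Of the 10 markers on this list 2 were tested in culture, Ly6a and Smoc2. Smoc2 differed by 0.35 (adjusted p = 0.84, with the block 0.0104, limma). Rgs5 of the pericyte and smooth muscle list also passed as higher. The part of these markers in the collagen I values was not tested.

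The abundant fibrillar chains were those of collagens III and V. Col3a1, the single chain of collagen III, had 46.8, 48.9, 31.7 and 84.1 RPKM in AdCRE libraries, against 57.6, 55.2, 42.2 and 92.8 RPKM in AdGFP libraries. Col5a2, a chain of collagen V, which sits in the core of collagen I fibrils, had 44.9, 77.0, 74.4 and 90.5 RPKM in AdCRE libraries, against 52.7, 80.7, 86.7 and 105 RPKM in AdGFP libraries. For both, the 2 groups overlapped widely, and each AdCRE library was below its same-numbered AdGFP library. Col3a1 differed by -0.25 (SE 0.32, adjusted p = 0.77) and Col5a2 by -0.18 (SE 0.26, adjusted p = 0.802) in limma, and both passed as lower with the block (adjusted p = 0.00983 and 0.0156). Col5a1, its partner in collagen V, had 11.5, 15.4, 15.1 and 27.4 RPKM in AdCRE and 10.3, 14.8, 16.5 and 30.8 RPKM in AdGFP libraries. It was higher in AdCRE in 2 of the 4 pairs and passed in neither fit (difference -0.02, 95% interval -0.83 to 0.79). Col5a3, a less common chain of collagen V, had 1.38, 0.546, 0.486 and 1.65 RPKM in AdCRE, against 1.10, 0.310, 0.265 and 0.920 RPKM in AdGFP libraries. Its levels followed the replicate number, with replicates 1 and 4 high in both groups, and the difference of 0.39 passed only with the block (adjusted p = 0.0217, limma).

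The basement membrane class in culture consisted almost wholly of Col4a1 and Col4a2, the chains of the most widespread collagen IV. Col4a1 had 130, 146, 113 and 168 RPKM in AdCRE libraries, against 151, 151, 149 and 188 RPKM in AdGFP libraries. Col4a2 had 60.3, 71.6, 52.0 and 74.4 RPKM in AdCRE libraries, against 64.9, 70.4, 65.5 and 79.3 RPKM in AdGFP libraries. The groups overlapped for both chains. Col4a1 differed by -0.20 (SE 0.14, adjusted p = 0.525, limma) and passed as lower with the block (adjusted p = 0.0361). Col4a2 differed by -0.13 and did not pass with the block either (adjusted p = 0.139, limma). Col4a5, a chain of a more restricted collagen IV, had 0.879, 0.944, 0.403 and 0.846 RPKM in AdCRE libraries, against 0.885, 0.861, 0.427 and 0.603 RPKM in AdGFP libraries. Its groups overlapped, with replicate 3 the lowest in both. Col4a3, Col4a4 and Col4a6 were below the filter.

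Of the other chains, Col7a1, the chain of the anchoring fibrils that fasten epithelia to connective tissue, had 4.10, 4.84, 5.29 and 6.82 RPKM in AdCRE libraries, against 1.18, 1.42, 1.47 and 1.91 RPKM in AdGFP libraries. Every AdCRE library was above every AdGFP library, and replicate 4 was the highest in both groups. Col7a1 was 1.52 higher on the log2 scale (SE 0.17, adjusted p = 0.0106, limma; with the block 5.89e-05). It passed in 5 of the 8 fits that left out a library, with adjusted p between 0.0299 and 0.0532, and missed without AdCRE replicate 2, AdGFP replicate 2 or AdGFP replicate 3. Col18a1, whose product is a basement membrane proteoglycan core and the source of endostatin, was the most abundant collagen chain in every culture library. Its levels were 326, 387, 347 and 496 RPKM in AdCRE and 305, 331, 343 and 447 RPKM in AdGFP libraries. Col18a1 was higher in AdCRE in all 4 pairs, and it passed in neither fit (difference 0.12, SE 0.17; adjusted p = 0.786, with the block 0.0983).

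The membrane-bound collagens Col13a1 and Col25a1 are known from neuromuscular junctions and motor innervation in mice. Col13a1 had 1.45, 1.52, 1.47 and 0.578 RPKM in AdCRE, against 1.16, 0.725, 0.912 and 0.302 RPKM in AdGFP libraries. Col25a1 had 2.31, 17.7, 18.7 and 10.9 RPKM in AdCRE, against 1.95, 15.6, 14.7 and 7.50 RPKM in AdGFP libraries. In both groups replicate 1 was far below the others for Col25a1 and replicate 4 below the others for Col13a1, and AdCRE was the higher one in each pair. Neither passed without the block, and both passed with it, Col13a1 at 0.47 (SE 0.10, adjusted p = 0.0135, limma) and Col25a1 at 0.30 (SE 0.06, adjusted p = 0.0111, limma). Among the chains tested in culture, Col8a2, a chain of the network collagen VIII, varied most between replicates. It had 0.323, 4.13, 4.13 and 0.520 RPKM in AdCRE and 0.310, 4.67, 5.27 and 0.345 RPKM in AdGFP libraries. Its difference was -0.05 with a 95% interval of -2.08 to 1.99 without the block and -0.30 to 0.21 with it.

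Col6a1, a chain of the beaded filament collagen VI, had 5.15, 5.20, 4.64 and 13.2 RPKM in AdCRE, against 3.85, 3.43, 2.66 and 11.1 RPKM in AdGFP libraries. Replicate 4 stood above the others in both groups, and Col6a1 passed with the block alone (0.46, SE 0.08, adjusted p = 0.00498, limma). Its partners Col6a2 and Col6a3, without which collagen VI is known not to assemble, were below the filter, at no more than 0.793 and 0.143 RPKM in any culture library. Col19a1, a fibril-associated collagen, had 3.71, 9.07, 9.17 and 7.13 RPKM in AdCRE libraries, against 3.63, 8.92, 7.08 and 7.16 RPKM in AdGFP libraries. Replicate 1 was the lowest in both groups, and the difference of 0.10 had a 95% interval of -0.66 to 0.86. The remaining tested chains, Col8a1, Col12a1, Col16a1, Col24a1, Col26a1 and Col27a1, passed in neither fit.

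In the sorted satellite cells 3 days after injury, 7 of the 27 chains tested rose in Chd4dPax7ER and 0 fell in limma's test, against 26.6% of all genes tested in either direction, 14.7% higher and 11.9% lower. The 7 were 2 of 7 fibrillar chains (Col1a1, Col27a1), 1 of 4 basement membrane chains (Col4a2) and 4 of 16 other chains (Col7a1, Col10a1, Col13a1, Col15a1). At an unadjusted p under 0.05 there were 10 chains, against 39.2% of all genes tested, the further ones being Col4a1 and Col4a6 on the higher side and Col8a1 on the lower. The groups did not overlap for 7 chains, 6 of them higher and 1 lower, against 30.3% of all genes tested. The median log2 fold change of the 27 chains was 0.29, and that of all genes tested -0.02. Without Chd4fl/fl replicate 1, the library with low collagen levels, 4 chains were higher (Col1a1, Col13a1, Col15a1, Col27a1) and 3 lower (Col5a3, Col6a1, Col8a1). In that fit 1535 of the 13344 genes tested were higher and 1079 lower, 19.6% in either direction.

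**Figure D3:**
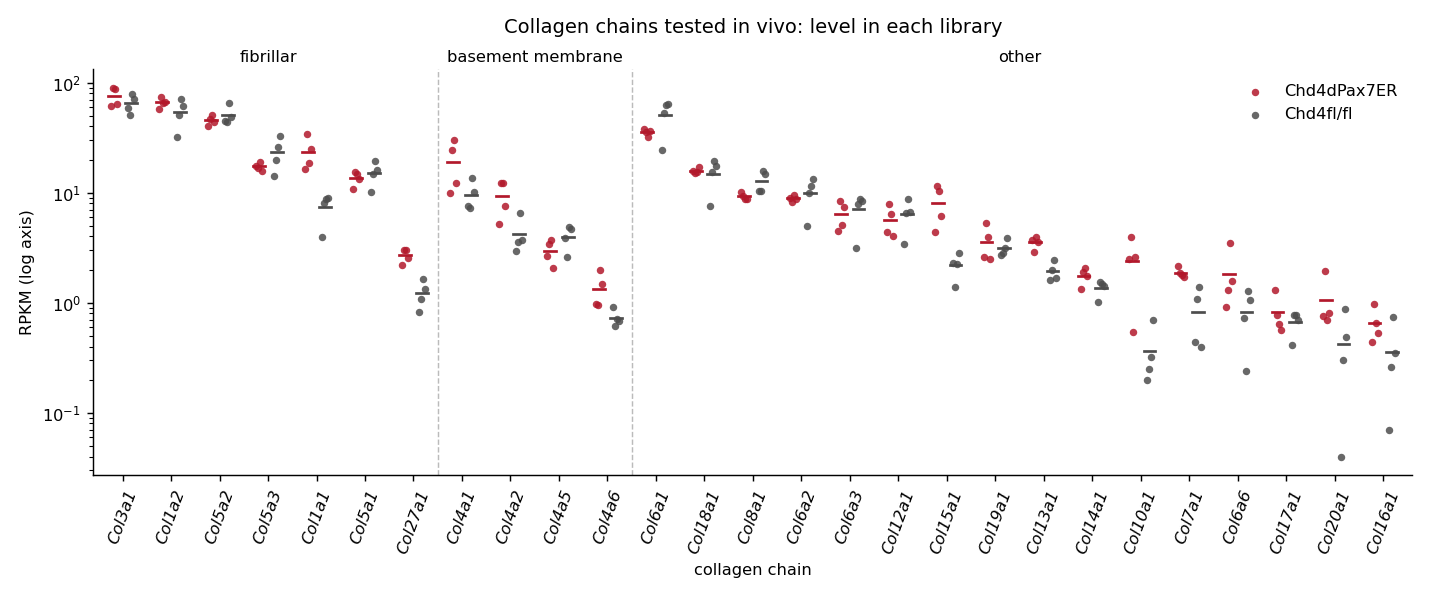
RPKM (log axis) of the 27 collagen chains tested in vivo, by class and by mean level; each point is 1 library (Chd4dPax7ER left, Chd4fl/fl right of each gene) and each bar the mean of 4. The 2 groups are apart, with Chd4dPax7ER higher, for 6 chains (Col1a1, Col27a1, Col4a6, Col15a1, Col13a1 and Col7a1), and with Chd4dPax7ER lower for Col8a1.

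Col1a1 had 16.5, 34.1, 18.4 and 24.8 RPKM in Chd4dPax7ER libraries, against 3.94, 8.12, 8.79 and 8.96 RPKM in Chd4fl/fl libraries. Every Chd4dPax7ER library was above every Chd4fl/fl library, and Chd4dPax7ER replicate 2 was the highest. That library was also the highest of its group for every marker list except the endothelial one. The part of these markers in the Col1a1 values was not tested. Col1a1 rose by 1.60 on the log2 scale (SE 0.29, adjusted p = 0.00406, limma), and in the 8 fits that left out a library the difference was 1.34 to 1.74 and passed each time. Col1a2 had 57.1, 74.2, 65.3 and 67.3 RPKM in Chd4dPax7ER libraries, against 32.0, 51.1, 71.7 and 61.6 RPKM in Chd4fl/fl libraries. These ranges overlapped, and the difference of 0.34 (SE 0.22) did not pass (adjusted p = 0.278, limma). Col3a1, the most abundant chain of the sorted cells by mean level, had 61.5, 89.9, 86.8 and 64.0 RPKM in Chd4dPax7ER libraries, against 58.6, 51.0, 78.8 and 71.0 RPKM in Chd4fl/fl libraries. It overlapped between the groups as well, with a difference of 0.22 (95% interval -0.16 to 0.59).

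Col27a1, a fibrillar chain known from cartilage in mice, had 2.20, 3.04, 3.01 and 2.54 RPKM in Chd4dPax7ER libraries, against 0.820, 1.07, 1.64 and 1.32 RPKM in Chd4fl/fl libraries. The groups did not overlap, and the rise of 0.91 (SE 0.19, adjusted p = 0.00836, limma) passed in each of the 8 fits without a library. No chain of collagen V passed: Col5a1 differed by -0.12, Col5a2 by -0.14 and Col5a3 by -0.35 (adjusted p = 0.672, 0.478 and 0.254, limma). Col5a2 had 40.3, 46.9, 50.8 and 43.7 RPKM in Chd4dPax7ER libraries, against 44.7, 43.6, 64.8 and 48.6 RPKM in Chd4fl/fl libraries. Col5a3 had 17.5, 16.8, 19.0 and 15.9 RPKM in Chd4dPax7ER libraries, against 14.2, 20.0, 26.1 and 32.5 RPKM in Chd4fl/fl libraries. Only Chd4fl/fl replicate 1 was below the Chd4dPax7ER libraries for Col5a3, and without it the difference was -0.56 (adjusted p = 0.0356, limma).

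Collagen IV chains summed to less than the fibrillar ones in each library of the sorted cells. Col4a1 had 9.86, 24.6, 29.9 and 12.3 RPKM in Chd4dPax7ER libraries, against 7.59, 7.19, 13.4 and 10.1 RPKM in Chd4fl/fl libraries. Col4a2 had 5.20, 12.2, 12.3 and 7.64 RPKM in Chd4dPax7ER libraries, against 2.98, 3.58, 6.60 and 3.75 RPKM in Chd4fl/fl libraries. For both chains replicates 2 and 3 of Chd4dPax7ER were the high ones, and Chd4dPax7ER replicate 1 lay within the Chd4fl/fl range, as did replicate 4 for Col4a1. Col4a2 rose by 1.03 (SE 0.30, adjusted p = 0.0326, limma), while Col4a1 missed the threshold at 0.86 (SE 0.35, adjusted p = 0.0954, limma). Leaving out 1 library at a time, Col4a2 passed only without Chd4dPax7ER replicate 1 or Chd4fl/fl replicate 3 (adjusted p 0.0119 to 0.0825), and Col4a1 only without Chd4dPax7ER replicate 1 (0.035 to 0.21). The endothelial markers summed to 7.83, 11.3, 14.3 and 8.23 RPKM in these Chd4dPax7ER libraries, against 3.72 to 7.07 RPKM in Chd4fl/fl libraries, and their part in the collagen IV values was not tested. Col4a5 had 2.67, 3.43, 3.70 and 2.08 RPKM in Chd4dPax7ER libraries, against 3.88, 2.61, 4.84 and 4.65 RPKM in Chd4fl/fl libraries, with overlap. Neither Col4a5 (difference -0.37, adjusted p = 0.247) nor Col4a6 (0.55, adjusted p = 0.0939) passed in limma. Col4a6 had 0.980, 0.950, 1.98 and 1.47 RPKM in Chd4dPax7ER libraries, all above the 0.620 to 0.910 RPKM of Chd4fl/fl libraries.

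Of the other chains, Col15a1, a relative of Col18a1 in the basement membranes of muscle and vessels, had 4.41, 11.5, 10.3 and 6.15 RPKM in Chd4dPax7ER libraries, against 2.29, 1.40, 2.23 and 2.84 RPKM in Chd4fl/fl libraries. The groups did not overlap, and Col15a1 rose by 1.61 (SE 0.30, adjusted p = 0.00448, limma), passing in each of the 8 fits without a library. Col18a1 itself had 15.7, 15.0, 15.3 and 17.2 RPKM in Chd4dPax7ER libraries, against 7.51, 15.4, 19.4 and 17.4 RPKM in Chd4fl/fl libraries. Chd4fl/fl replicate 1 was the lowest of the 8 and the groups overlapped, and the difference of 0.16 had a 95% interval of -0.40 to 0.72.

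Col13a1 had 3.71, 2.91, 3.99 and 3.58 RPKM in Chd4dPax7ER libraries, against 1.61, 1.99, 2.46 and 1.69 RPKM in Chd4fl/fl libraries. All 4 Chd4dPax7ER libraries were higher, and Col13a1 rose by 0.74 (SE 0.16, adjusted p = 0.0101, limma) with no fit without a library ending the call. Col10a1, the network collagen of hypertrophic cartilage, had 2.49, 3.99, 0.540 and 2.61 RPKM in Chd4dPax7ER libraries, against 0.200, 0.250, 0.320 and 0.700 RPKM in Chd4fl/fl libraries. Chd4dPax7ER replicate 3 lay within the Chd4fl/fl range, and the filter was reached by the 4 Chd4dPax7ER libraries and 1 Chd4fl/fl library. The rise of 1.60 (SE 0.42, adjusted p = 0.0218, limma) passed without Chd4dPax7ER replicate 3, Chd4fl/fl replicate 3 or Chd4fl/fl replicate 4, and missed without any other single library (adjusted p 0.0021 to 0.0559). Col7a1 had 2.14, 1.85, 1.77 and 1.73 RPKM in Chd4dPax7ER libraries, against 0.440, 1.08, 1.39 and 0.400 RPKM in Chd4fl/fl libraries. The groups did not overlap, but the Chd4fl/fl libraries split into 2 higher and 2 lower ones. Col7a1 rose by 0.91 (SE 0.26, adjusted p = 0.0322, limma) and held without Chd4fl/fl replicate 2 or Chd4fl/fl replicate 3, but not without any other single library (adjusted p 0.0164 to 0.0795).

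No chain of collagen VI or VIII passed in the test counted above, which held all libraries. Col6a1 had 38.1, 35.2, 31.7 and 36.0 RPKM in Chd4dPax7ER libraries, against 24.2, 52.4, 62.9 and 64.1 RPKM in Chd4fl/fl libraries. Chd4fl/fl replicate 1 was the lowest of all 8 and the other Chd4fl/fl libraries the highest. The difference was -0.43 (SE 0.27, adjusted p = 0.27, limma) with all libraries and -0.75 without Chd4fl/fl replicate 1 (adjusted p = 0.00197). Col6a2 and Col6a3 differed by -0.07 and -0.08, with 95% intervals of -0.63 to 0.48 and -0.80 to 0.63. Col8a1, a chain of the network collagen VIII, had 10.1, 9.26, 8.74 and 8.77 RPKM in Chd4dPax7ER libraries, against 10.4, 10.3, 15.6 and 14.9 RPKM in Chd4fl/fl libraries. Every Chd4dPax7ER library was below every Chd4fl/fl library, and Col8a1 missed the threshold at -0.43 (SE 0.15, adjusted p = 0.0611, limma). With TPM scaling Col8a1 passed as lower (adjusted p = 0.0358, limma). Of the fibril-associated chains, Col12a1, Col14a1, Col16a1, Col19a1 and Col20a1 were tested and none passed, with adjusted p between 0.133 and 0.773 in limma. Col6a6, a further collagen VI chain, had 0.91, 1.31, 3.46 and 1.57 RPKM in Chd4dPax7ER libraries, against 0.72, 0.24, 1.27 and 1.06 RPKM in Chd4fl/fl libraries. Its groups overlapped and the difference of 0.77 did not pass (SE 0.37, adjusted p = 0.156, limma). Col17a1, the membrane-bound collagen of hemidesmosomes, differed by 0.17 (95% interval -0.36 to 0.69) at 0.57 to 1.3 RPKM in Chd4dPax7ER and 0.41 to 0.78 RPKM in Chd4fl/fl libraries.

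Chains below the filter were not tested. In both settings these were Col2a1, Col4a3, Col4a4, Col6a4, Col6a5, Col9a1, Col9a2, Col9a3, Col11a1, Col11a2, Col22a1, Col23a1 and Col28a1. Col8a2, Col24a1, Col25a1 and Col26a1 were below it in vivo alone, and Col4a6, Col6a2, Col6a3, Col6a6, Col10a1, Col14a1, Col15a1, Col17a1 and Col20a1 in vitro alone. In vivo their highest single value was 2.07 RPKM, for Col23a1 in Chd4dPax7ER replicate 2, and in vitro it was 1.20 RPKM, for Col9a3 in AdCRE replicate 4. Col9a3, a chain of cartilage collagen IX, had 0.78, 0.73, 0.32 and 0.50 RPKM in Chd4dPax7ER libraries, against 0, 0.04, 0 and 0 RPKM in Chd4fl/fl libraries. All 4 Chd4dPax7ER values were above those of Chd4fl/fl, but only 3 libraries reached 0.5 RPKM. The cartilage chains Col2a1, Col11a1 and Col9a1 were at most 0.470, 0.290 and 0.03 RPKM in any of the 16 libraries. Col11a2 reached 1.06 RPKM in AdCRE replicate 2 and 0.59 RPKM in Chd4fl/fl replicate 3. No chain was listed at 0 in all libraries.

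Set side by side, Col1a1 differed by 1.62 in vitro and by 1.60 in vivo, and Col7a1 by 1.52 in vitro and 0.91 in vivo. The in vitro figure for Col1a1 depends on the pseudocount, since its AdGFP libraries were at 0.0412 to 0.0904 RPKM. Over the settings that kept every library, Col1a1 differed by 1.08 to 3.02 in vitro and by 1.53 to 1.66 in vivo. The difference between the fold changes of the 2 settings was tested in 1 fit over all 16 libraries for the 18 chains tested in both. In that test 1 chain passed, against 4.12% of all genes tested, and with the block in vitro the same chain, against 10.8%. Col27a1 had a fold change 0.89 lower in vitro than in vivo (-0.89, SE 0.24, adjusted p = 0.0483, limma; with the block in vitro 0.031). Its levels in culture were 0.451 to 0.785 RPKM in AdCRE and 0.457 to 0.760 RPKM in AdGFP libraries, which overlapped fully. The call held in 3 of 16 fits that left out a library, those without AdGFP replicate 1, Chd4dPax7ER replicate 1 or Chd4fl/fl replicate 3, and was lost in the other 13 (adjusted p 0.0324 to 0.0891). It was also lost with a pseudocount of 0.1, with no filter and with TPM scaling, and over all settings that kept every library adjusted p was 0.0127 to 0.102. Col4a2 (-1.16, SE 0.35, adjusted p = 0.075) and Col4a1 (-1.07, SE 0.40, adjusted p = 0.159) did not pass in limma, although their fold changes had opposite signs in the 2 settings. On the log2(RPKM + 0.5) scale the difference between settings was 0.02 for Col1a1 (95% interval -0.79 to 0.83) and 0.61 for Col7a1 (95% interval -0.06 to 1.28). The value for Col1a1 depends on the pseudocount, since its fold change in vitro does.

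**Figure D4:**
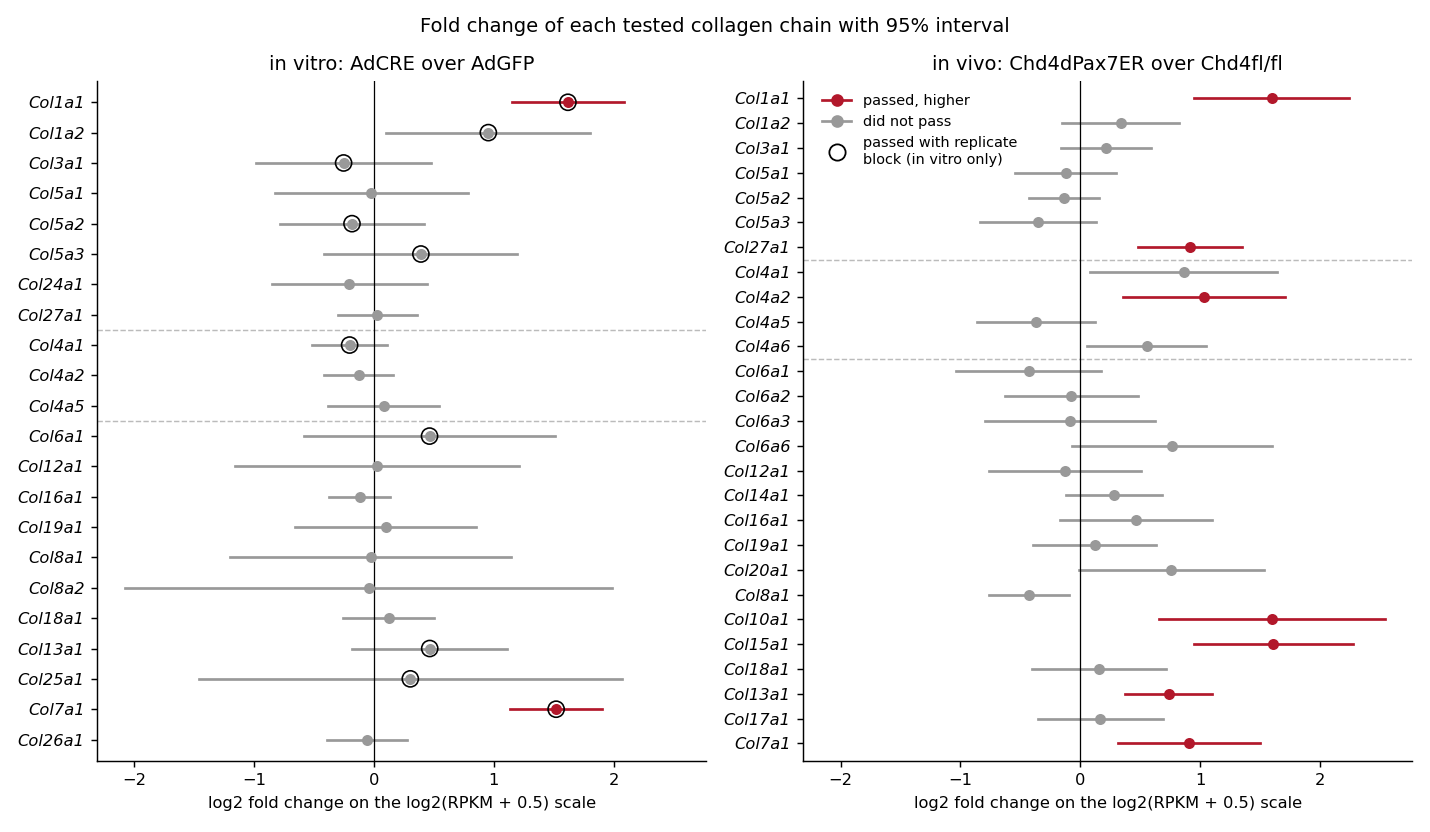
Log2 fold change (on the log2(RPKM + 0.5) scale) of each tested collagen chain with its 95% interval, AdCRE over AdGFP on the left and Chd4dPax7ER over Chd4fl/fl on the right; dashed lines part fibrillar (top), basement membrane and other chains. Col1a1 and Col7a1 are the 2 chains that passed in both settings, and in vitro Col1a1 reached the filter through the AdCRE libraries alone. Circles mark the 10 chains that passed in vitro with the replicate block.

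Ratios of partner chains, given without a test, lay apart between the groups in both settings for collagen I. There the ratio of Col1a2 to Col1a1, both per length, was 3.45, 2.17, 3.54 and 2.71 in Chd4dPax7ER libraries, against 8.13, 6.30, 8.16 and 6.87 in Chd4fl/fl libraries. Chd4dPax7ER libraries were all below Chd4fl/fl libraries, and Col1a2 exceeded Col1a1 in all 8. In culture the ratio was 1.86, 0.390, 0.313 and 2.40 in AdCRE libraries, against 10.5, 3.69, 2.64 and 6.42 in AdGFP libraries. The AdCRE ratios were again all lower, and in AdCRE replicates 2 and 3 Col1a1 exceeded Col1a2. The AdGFP ratios divide by Col1a1 at 0.0412 to 0.0904 RPKM, near 0, with Col1a2 at 0.126 to 0.580 RPKM. Col1a1 passed the filter in culture through the AdCRE libraries alone. The culture ratios therefore largely restate the Col1a1 difference given above. In collagen IV, by contrast, Col4a1 was about the same multiple of Col4a2 in all culture libraries, at 2.04 to 2.27 in AdCRE and 2.14 to 2.37 in AdGFP. In vivo this ratio was 1.61 to 2.42 in Chd4dPax7ER and 2.01 to 2.69 in Chd4fl/fl, with overlap. In collagen VI, the ratio of Col6a1 to Col6a2 was 3.34 to 4.27 in Chd4dPax7ER and 4.83 to 5.50 in Chd4fl/fl libraries, which were apart. The ratio of Col6a1 to Col6a3 was 4.16 to 8.44 in Chd4dPax7ER and 6.68 to 7.72 in Chd4fl/fl libraries, with overlap. In culture, where Col6a2 and Col6a3 were below the filter, both ratios overlapped, that to Col6a2 at 13.0 to 22.7 in AdCRE and 14.4 to 46.1 in AdGFP.

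**Figure D5:**
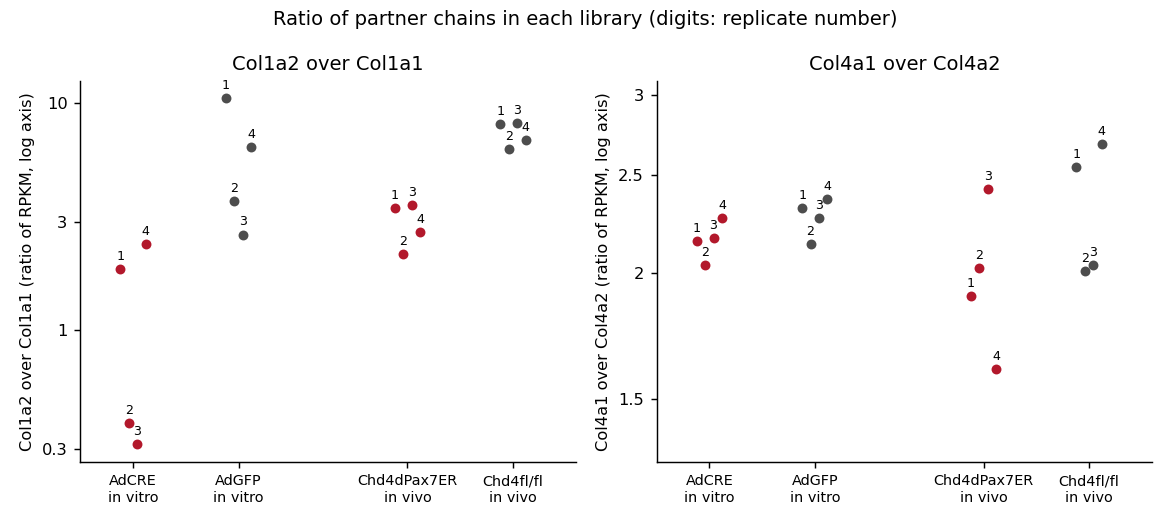
Ratio of RPKM of partner chains in each library (log axes; digits are replicate numbers), Col1a2 over Col1a1 on the left and Col4a1 over Col4a2 on the right. Col1a1 was at 0.0412 to 0.0904 RPKM in AdGFP, so the AdGFP ratios on the left rest on values near 0. The Col1a2 to Col1a1 ratio is lower in AdCRE and in Chd4dPax7ER than in their controls, at 0.313 to 2.40 in AdCRE against 2.64 to 10.5 in AdGFP and at 2.17 to 3.54 in Chd4dPax7ER against 6.30 to 8.16 in Chd4fl/fl, while the Col4a1 to Col4a2 ratio lies between 1.61 and 2.69 in all 16 libraries.

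The genes lie on many chromosomes (positions in GRCm38.p6 from RefSeq). Col1a1 lies on chromosome 11 at 94936224 to 94953042 and Col1a2 on chromosome 6 at 4505618 to 4541543, so the chains of collagen I are unlinked. Col7a1 lies on chromosome 9 at 108953586 to 108984875, and Col15a1 on chromosome 4 at 47207655 to 47313167. Col4a1 (11198423 to 11312889) and Col4a2 (11312805 to 11449287) lie head to head on chromosome 8, and their gene models share 85 bases. The Col10a1 model (chromosome 10, 34389981 to 34397085) lies within that of Nt5dc1, so its reads can be told from those of Nt5dc1 only where the authors' counting kept them apart.

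Sequences just before the start are given for 3 chains: Col7a1, which rose in both settings; Col1a2, whose partner Col1a1 rose; and Col10a1, which rose in sorted cells and was below the filter in culture. Each is the 250 bases before the annotated start, 5′ to 3′ on the gene's strand (RefSeq, GRCm38.p6: Col7a1 chr9:108953336-108953585, Col1a2 chr6:4505368-4505617, Col10a1 chr10:34389731-34389980, all on the plus strand). Capitals mark matches on either strand to CCAAT, to the GC-box core GGGCGG or to the TATA-box core TATAAA, so a match on the other strand reads as the reverse complement.
Col7a1: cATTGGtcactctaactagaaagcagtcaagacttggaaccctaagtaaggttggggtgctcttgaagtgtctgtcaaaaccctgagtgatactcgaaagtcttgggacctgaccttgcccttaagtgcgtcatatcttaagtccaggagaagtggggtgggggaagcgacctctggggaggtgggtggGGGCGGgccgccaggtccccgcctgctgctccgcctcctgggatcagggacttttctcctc
Col1a2: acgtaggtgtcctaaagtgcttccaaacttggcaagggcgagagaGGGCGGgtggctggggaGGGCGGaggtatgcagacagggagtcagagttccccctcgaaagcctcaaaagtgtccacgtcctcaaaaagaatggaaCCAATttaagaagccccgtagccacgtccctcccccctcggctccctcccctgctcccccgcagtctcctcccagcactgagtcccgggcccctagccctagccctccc
Col10a1: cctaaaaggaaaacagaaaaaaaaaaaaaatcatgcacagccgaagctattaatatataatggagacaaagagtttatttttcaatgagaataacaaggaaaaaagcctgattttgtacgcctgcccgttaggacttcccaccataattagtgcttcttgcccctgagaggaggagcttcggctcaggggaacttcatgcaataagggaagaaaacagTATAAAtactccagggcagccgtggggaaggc
Col10a1 held TATAAA beginning 32 bases before the start and neither of the other 2 motifs. Col7a1 held GGGCGG beginning 61 bases before the start and CCAAT on the other strand, and Col1a2 held GGGCGG in 2 places and CCAAT beginning 109 bases before the start. Over 32841 promoters of this length, 33.9% held CCAAT, 32.7% GGGCGG and 12.4% TATAAA. Of the 35 collagen genes with such a sequence, 13, 21 and 5 held these motifs. A match is a description of the letters and not evidence of binding.

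Genes that process collagen were described from 4 lists: hydroxylation and folding in the endoplasmic reticulum, export of procollagen, cleavage and crosslinking outside the cell, and receptors. In vivo 10 of the 18 tested genes of the folding list were higher and 1 lower, against 14.7% of all genes tested higher and 11.9% lower, and the median log2 fold change was 0.41, against -0.02 over all genes tested. Plod1, a lysyl hydroxylase, had 9.65, 10.8, 11.2 and 8.38 RPKM in Chd4dPax7ER libraries, against 3.29, 4.44, 5.23 and 4.40 RPKM in Chd4fl/fl libraries. All Chd4dPax7ER libraries were above every Chd4fl/fl library, and Plod1 rose by 1.13 (SE 0.15, adjusted p = 0.00099, limma). The prolyl 3-hydroxylases P3h2 (1.04, adjusted p = 0.00156) and P3h1 (0.62, adjusted p = 0.00374) rose as well in limma. So did Fkbp10, a collagen chaperone (0.88, adjusted p = 0.0012), and P4ha2, a prolyl 4-hydroxylase subunit (0.74, adjusted p = 0.0106), and each passed in all 8 fits without a library. The groups did not overlap in vivo for any of these 5, against 30.3% of all genes tested. The 5 were named for the largest changes among genes that passed, which favours such a separation. In culture 0 of 19 tested genes of this list passed in limma, against 0.656% of all genes, and 3 had an unadjusted p under 0.05, against 15.6%. With the block 7 were higher and 2 lower, against 17.5% and 18.7% of all genes.

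Of the 7 genes for export, which carry procollagen out in enlarged COPII vesicles, 3 rose and 1 fell in vivo, against 14.7% of all genes tested higher and 11.9% lower. Sec24d, a coat subunit, had 24.7, 28.45, 28.6 and 34.0 RPKM in Chd4dPax7ER libraries, against 15.4, 18.4, 16.8 and 15.8 RPKM in Chd4fl/fl libraries. These did not overlap, and Sec24d rose by 0.78 (SE 0.10, adjusted p = 0.00106, limma). Sar1b, the GTPase of the coat, rose by 0.47 (adjusted p = 0.00325, limma) and Sec23a by 0.30 (adjusted p = 0.0415, limma). Of the 8 fits without a library, Sec23a passed only without Chd4dPax7ER replicate 1 or Chd4dPax7ER replicate 3. It also missed with no filter, TPM scaling or no trend (adjusted p up to 0.0747, limma). Mia2, a receptor for large cargo, fell (-0.32, adjusted p = 0.0176, limma). Mia2 passed in 7 of 8 fits without a library and missed without Chd4fl/fl replicate 2 (adjusted p = 0.0543). Sec23a was also the 1 gene of the 4 lists that passed in culture without the block. It had 35.5, 34.5, 35.3 and 33.0 RPKM in AdCRE libraries, against 25.4, 25.4, 25.3 and 22.9 RPKM in AdGFP libraries. Its groups did not overlap, and it rose by 0.48 (SE 0.06, adjusted p = 0.0192, with the block 0.000354, limma). Without the block, Sec23a passed in 0 of the 8 fits without a library (adjusted p 0.0501 to 0.0831). In those fits 0.118 to 0.324% of all genes tested passed, against 0.656% with all libraries. With the block 2 of the 7 export genes were higher and 0 lower in culture, against 17.5% and 18.7% of all genes.

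The cleavage and crosslinking list went both ways in vivo, with 4 of 12 tested genes higher and 4 lower (median 0.15), against 14.7% of all genes tested higher and 11.9% lower. Loxl2, a lysyl oxidase that crosslinks collagen IV among others, had 7.26, 11.3, 13.95 and 12.65 RPKM in Chd4dPax7ER libraries, against 4.50, 3.60, 4.44 and 3.23 RPKM in Chd4fl/fl libraries. Lox, the lysyl oxidase of fibrillar collagen, had 7.16, 13.95, 10.3 and 5.68 RPKM in Chd4dPax7ER libraries, against 13.0, 16.8, 23.1 and 19.5 RPKM in Chd4fl/fl libraries. Loxl2 did not overlap between groups and Lox did by 1 library. Loxl2 rose by 1.38 (SE 0.20, adjusted p = 0.00145, limma) and Lox fell (-0.97, SE 0.27, adjusted p = 0.0256, limma), Lox passing without Chd4dPax7ER replicate 2, Chd4dPax7ER replicate 3 or Chd4fl/fl replicate 1 and missing without any other single library (adjusted p 0.00963 to 0.0663). Pcolce, an enhancer of propeptide cleavage, rose by 1.36 (adjusted p = 0.00149), while its relative Pcolce2 (-1.06, adjusted p = 0.0105) and the procollagen peptidase Adamts3 (-1.23, adjusted p = 0.00433) fell in limma. Of 7 receptors tested in vivo 2 passed, a share near the 26.6% of all genes tested. Mrc2, which takes up collagen fragments (1.07, adjusted p = 0.00809), and Adgrg1, an adhesion receptor that binds collagen III (0.95, adjusted p = 0.0148), rose in limma. In culture none of the 11 cleavage genes and none of the 7 receptors tested passed in limma. The unadjusted p was under 0.05 for 3 and 0 of them, against 15.6% of all genes tested. With the block 3 cleavage genes were higher and 3 lower, and 1 receptor was higher and 1 lower, against 17.5% of all genes higher and 18.7% lower.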

How the data were processed

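Each setting has 1 table that the authors deposited, holding RPKM values for 46078 genes in 8 RNA-seq libraries of RNA extracted with a column kit. Which program counted reads, and with which gene lengths, was not given in the sources used here. Named in the submitters' processing notes are HISAT2 2.1.0, DESeq2 3.6, cutadapt 1.18, FastQC 0.11.8, HOMER, MACS2 2.1.2 and Picard 2.18.15, with no word on which made these tables. RPKM scales reads to library size and to the length of each gene, so levels can be compared between genes within a table, while a few abundant genes can shift all others. The 2 tables were processed separately, so levels were compared only within a table, and class shares, taken within a library, are set side by side without a test. In vivo values are rounded to 2 decimals, and 116 of them carried a digit-grouping comma that was removed. Depth per library is unknown from RPKM. In vitro the steps of low values gave relative depths of up to 1.64 times the shallowest library. 8 ATAC-seq samples were not analysed here.

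Genes with at least 0.5 RPKM in at least 4 of 8 libraries were tested (13567 in vitro, 13344 in vivo) on log2(RPKM + 0.5) with limma 3.58.1 (statmod 1.5.0, R 4.3.3) and a mean-variance trend. P-values were adjusted by the Benjamini-Hochberg method across every gene tested, with a threshold of 0.05. Fold changes in 2 settings were compared as a contrast in 1 fit of 16 libraries over 11941 genes tested in both. SE is limma's moderated standard error, and the procedure was tested on simulated data.

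Deviations of same-numbered libraries from their group means correlated at 0.711 to 0.856 in vitro, each library matching its own number best, so the numbers pair those samples; in vivo the correlations were -0.0967 to 0.0499. For collagen chains whose call in vitro a block on replicate number changes, results are therefore printed with it too. The marker and processing lists in vitro are given with it as counts. Alternatives were other pseudocounts (0.1 and 1), no filter, other scalings, no trend, the block and leaving out each library.

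The members, classes, marker lists and processing lists were chosen with earlier results of these data known. Chains that passed in a fit and the 3 most abundant of each class in each setting are given for every library, and up to 5 genes per processing list with the largest change among those that passed are named. Other genes with a value (Col4a6, Col8a2, Col9a3, Col23a1 and the chains below the filter or not passing) were chosen after their values were seen. Genes that share reads with neighbours or antisense genes cannot be told apart, since strand use in counting is not given. Figures were drawn with matplotlib.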

Additional observations from a re-analysis of the deposited data

Results flagged for a closer look

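Values of 35 genes in 110 sets of 4 libraries were examined for a library far from the other 3, which chance alone would give in about 1 of 20 sets. 8 such libraries were found. Replicate 4 was one of them for 5 values in culture. Col6a1 had 13.2 RPKM in AdCRE replicate 4, against 4.64 to 5.20 RPKM in the other AdCRE libraries, and 11.1 RPKM in AdGFP replicate 4, against 2.66 to 3.85 RPKM in the other AdGFP libraries. Col13a1 had 0.578 RPKM in AdCRE replicate 4, against 1.45 to 1.52 RPKM in the others. Col4a1 had 188 RPKM in AdGFP replicate 4, against 149 to 151 RPKM, and Sec23a had 22.9 RPKM there, against 25.3 to 25.4 RPKM. AdGFP replicate 4 was also the deepest culture library.

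In vivo, Col1a1 had 3.94 RPKM in Chd4fl/fl replicate 1, against 8.12 to 8.96 RPKM in the other Chd4fl/fl libraries, and Sar1b had 33.8 RPKM there, against 40.2 to 40.5 RPKM. Col1a1 was higher in Chd4dPax7ER in each of the 8 fits without a library (adjusted p 0.00547 to 0.0132, limma). Adgrg1 had 13.6 RPKM in Chd4dPax7ER replicate 2, against 8.37 to 9.22 RPKM in the other Chd4dPax7ER libraries.

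The fold change of Col27a1 passed as different between the settings with all libraries (-0.89 in vitro minus in vivo, adjusted p = 0.0483, limma), but in only 3 of the 16 fits without a library (adjusted p 0.0324 to 0.0891), and not with a pseudocount of 0.1, no filter or TPM scaling (0.0127 to 0.102 over all settings that kept every library). It was 0.03 in vitro, where 2 of 4 pairs were higher in AdCRE, and 0.91 in vivo, where all 4 Chd4dPax7ER libraries were above the Chd4fl/fl libraries.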

How the results depend on the processing

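Counts of collagen chains depended on how the replicate number was treated in culture and on single libraries in vivo, and so did the share of all genes that passed. In vitro that share was 0.656%, with the replicate block 36.2%, and with the block but without a pair 23.3 to 28.2%. With a library left out it was 0.118 to 0.324%. In vivo it was 26.6%, and 19.5 to 23.8% with a library left out. With no filter it was 12.8% there, with TPM scaling 27.9% and with the block 21.6%. For the difference between settings it was 4.12%, and 1.84 to 14.1% over the alternatives. In vitro 2 chains higher and 0 lower became 7 higher and 3 lower with the replicate block, and 6 to 7 higher and 1 to 3 lower with the block and without a same-numbered pair in turn. Leaving out 1 library gave 0 to 2 higher, and 0 were found without AdCRE replicate 2, AdGFP replicate 2 or AdGFP replicate 3. In vivo 7 chains higher became 4 without Chd4dPax7ER replicate 2, Chd4dPax7ER replicate 4 or Chd4fl/fl replicate 1, with 4 to 7 over all libraries left out. With no filter, over 44 chains, 6 were higher and 0 lower. Col4a2 and Col7a1 were not among these 6 (adjusted p = 0.0614 and 0.0709, limma). The 0 chains lower became 1 with TPM scaling (Col8a1) and 0 to 3 with a library left out, 3 without Chd4fl/fl replicate 1 and 1 without Chd4fl/fl replicate 2. The in vivo numbers did not pair the samples, and the replicate block there gave 6 higher and 0 lower, with Col7a1 not passing (adjusted p = 0.0569, limma). Over the settings, 1 chain differed, which became 0 with pseudocount 0.1, with no filter or with TPM scaling, 3 with the replicate block in both settings, and 0 to 2 with a library left out. The fibrillar sum in vivo, 1.13 times as high in Chd4dPax7ER as in Chd4fl/fl, was 0.88 times as high without Col1a1, Col1a2 and Col3a1.

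Changes of direction were limited to chains that passed in no fit of that setting, apart from Col25a1 and Col5a2, which passed in vitro with the block. In vitro Col27a1 was -0.038 and Col4a5 -0.023 with quantile scaling. With the replicate block, Col8a1 was 0.0078 without replicate 1, Col27a1 was -0.0046 and Col5a1 0.014 without replicate 3, and Col5a1 was 0.027 without replicate 4. With a single library left out and no block, the in vitro difference was -0.037 to 0.11 for Col27a1 and -0.033 to 0.24 for Col4a5. It was -0.26 to 0.27 for Col5a1, -0.38 to 0.025 for Col5a2 and -0.42 to 0.40 for Col8a1. For Col19a1 it was -0.15 to 0.37, for Col18a1 -4.26e-05 to 0.24 and for Col25a1 -0.28 to 0.93. In vivo it was -0.066 to 0.25 for Col19a1, -0.13 to 0.31 for Col18a1 and -0.29 to 0.0082 for Col5a1. For single named genes, settings that kept all libraries left the direction and the side of the threshold as they were in 351 of 372 values; 10 no longer passed and 9 passed newly. With a library or pair left out this was so in 392 of 504 values, while 60 no longer passed and 28 passed newly. Fits without a library have fewer samples, and the cause of the other changes was not tested. Among chains under about 0.5 RPKM, and with depth unknown, small differences could not be detected.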
